A study of Mus musculus with 4 samples.

Results

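Complement is a cascade of plasma proteins that marks particles and dying cells for uptake by phagocytes. C1q, the recognition part of the classical pathway, is built from 3 chains encoded by C1qa, C1qb and C1qc. Most C1q is made by macrophages and immature dendritic cells, unlike the bulk of plasma complement, which comes from the liver. The members described here were chosen by name as 9 genes: the C1q chains, the components C3, Cfb and Cfp, the receptors C3ar1 and C5ar1, and the membrane regulator Cd59a. Of these 9, 8 had a probe set listed with a single gene symbol, each with 1 probe set, out of 19938 genes measured that way. C3 was not analysed here.

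The data came from 4 microarrays of mouse marrow cells expanded in GM-CSF, a growth factor that yields adherent macrophages and dendritic-type cells. The cultures were Bach1 (+/+) or Bach1 (-/-), both on the B6 background, and all were kept in 20 ng/ml GM-CSF with 10% serum for 6 days. They then received heme, labelled as 40 µm, or its vehicle, 0.15 M NaCl with 10% NH4OH, and only cells still attached 24 hours later were collected. Bach1 is a repressor whose DNA binding is inhibited by heme, and the study's title concerns its release of the transcription factor gene Spic. Age, sex and the number of mice behind a culture are not given in the sources used here. Each of the 4 groups had 1 array, so differences could not be set against a spread between replicates, no test was made, and the small number of arrays limits the precision.

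Signals are RMA values on a linear scale, and median signals of the arrays lay between 30.4 and 31.4. A gene was taken as at level where the brighter array of a comparison reached 31.0, the median of all values, and a difference counted from 2-fold upwards. The robust SD of the log2 difference over all genes at level was 0.25 to 0.28 in the 4 comparisons of 2 arrays. The probe set of Bach1 lay between 204 and 264 on the 4 arrays without following genotype. The position of its probes against the deletion was not known, so it checks nothing, and the arrays are called labelled knockout. Hmox1 and Spic, known targets of Bach1 repression, had signals of 1827 and 17.0 in wild type and of 9047 and 298 in the labelled knockout, both with vehicle. Of the markers of the culture, all 8 macrophage genes were at level, and of the 7 dendritic genes Flt3 and Zbtb46 were not.

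The C1q genes differed in the same direction in most comparisons, so the sequences upstream of their start sites are shown first, with that of Cd59a, the member that differed most in the other direction. The RefSeq table (GRCm38.p6) held a window from 250 bases before to 50 bases after the start site for 7 of the 9 members, not for C1qa and Cfb. C1qb lies at chr4:136886151-136886450 and C1qc at chr4:136892865-136893164, both on the minus strand, and Cd59a at chr2:104095551-104095850 on the plus strand. Capitals mark matches to the motifs searched, on either strand.
C1qb: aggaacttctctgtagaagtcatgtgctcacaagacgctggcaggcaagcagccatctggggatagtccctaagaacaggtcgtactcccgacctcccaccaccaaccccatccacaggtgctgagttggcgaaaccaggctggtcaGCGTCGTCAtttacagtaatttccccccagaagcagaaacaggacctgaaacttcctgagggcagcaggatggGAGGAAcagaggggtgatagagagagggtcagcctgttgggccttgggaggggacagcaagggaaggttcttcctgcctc
C1qc: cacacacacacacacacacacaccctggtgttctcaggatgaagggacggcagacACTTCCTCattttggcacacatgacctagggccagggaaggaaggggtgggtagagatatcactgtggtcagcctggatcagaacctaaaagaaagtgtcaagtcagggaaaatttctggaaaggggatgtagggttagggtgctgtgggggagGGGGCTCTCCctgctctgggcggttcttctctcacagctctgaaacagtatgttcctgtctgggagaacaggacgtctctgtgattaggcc
Cd59a: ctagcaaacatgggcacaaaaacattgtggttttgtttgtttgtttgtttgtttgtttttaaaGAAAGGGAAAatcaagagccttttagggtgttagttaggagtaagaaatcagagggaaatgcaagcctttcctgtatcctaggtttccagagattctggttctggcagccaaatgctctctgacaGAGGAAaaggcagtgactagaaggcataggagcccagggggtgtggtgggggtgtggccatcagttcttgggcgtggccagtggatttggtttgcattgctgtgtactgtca

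The 10-base core of the Maf recognition element, the kind of site through which Bach1 with a small Maf partner binds DNA, had no match in any of the 7 windows, and 0.155% of all 32851 windows of this length held it. The shorter AP-1 core TGANTCA, which lies inside that element, matched only the C3ar1 window among the members (7.81% of all windows). The antioxidant response element TGACNNNGC, which NRF2 and Bach1 both recognise, matched in C1qb and Cfp and in 12.4% of all windows. The core GAGGAA bound by PU.1 and Spi-C matched in C1qb, C1qc, Cfp and Cd59a, and in 28.3% of all windows. Its longer form GAGGAAGT, which contains the short core, matched only C1qc among the members (3.20% of all windows). The interferon response element matched only Cd59a (3.44%), and the kappa B consensus only C1qc (4.51%). These matches describe the letters of the windows and no binding was measured.

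The classical pathway's C1q chains were lower with heme in wild-type cultures and lower on both labelled knockout arrays. C1qa, which encodes the A chain, had a signal of 213 with vehicle and 48.9 with heme in wild type, and of 30.6 and 31.9 in the labelled knockout. C1qb, the B chain, had 322 and 90.6 in wild type and 80.7 and 56.9 in the labelled knockout. C1qc, the C chain, had 911 and 295 in wild type and 170 and 103 in the labelled knockout. For all 3 genes the wild-type vehicle array was the highest, by 4.36-fold over the next array for C1qa, 3.56-fold for C1qb and 3.09-fold for C1qc. Only 14 of 11155 genes at level on any array (0.126%) stood 2-fold or more above every other array on the wild-type vehicle array, and the C1q genes are 3 of those 14. The members were chosen with earlier results of these data known, so this count only describes the arrays.

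**Figure D1:**
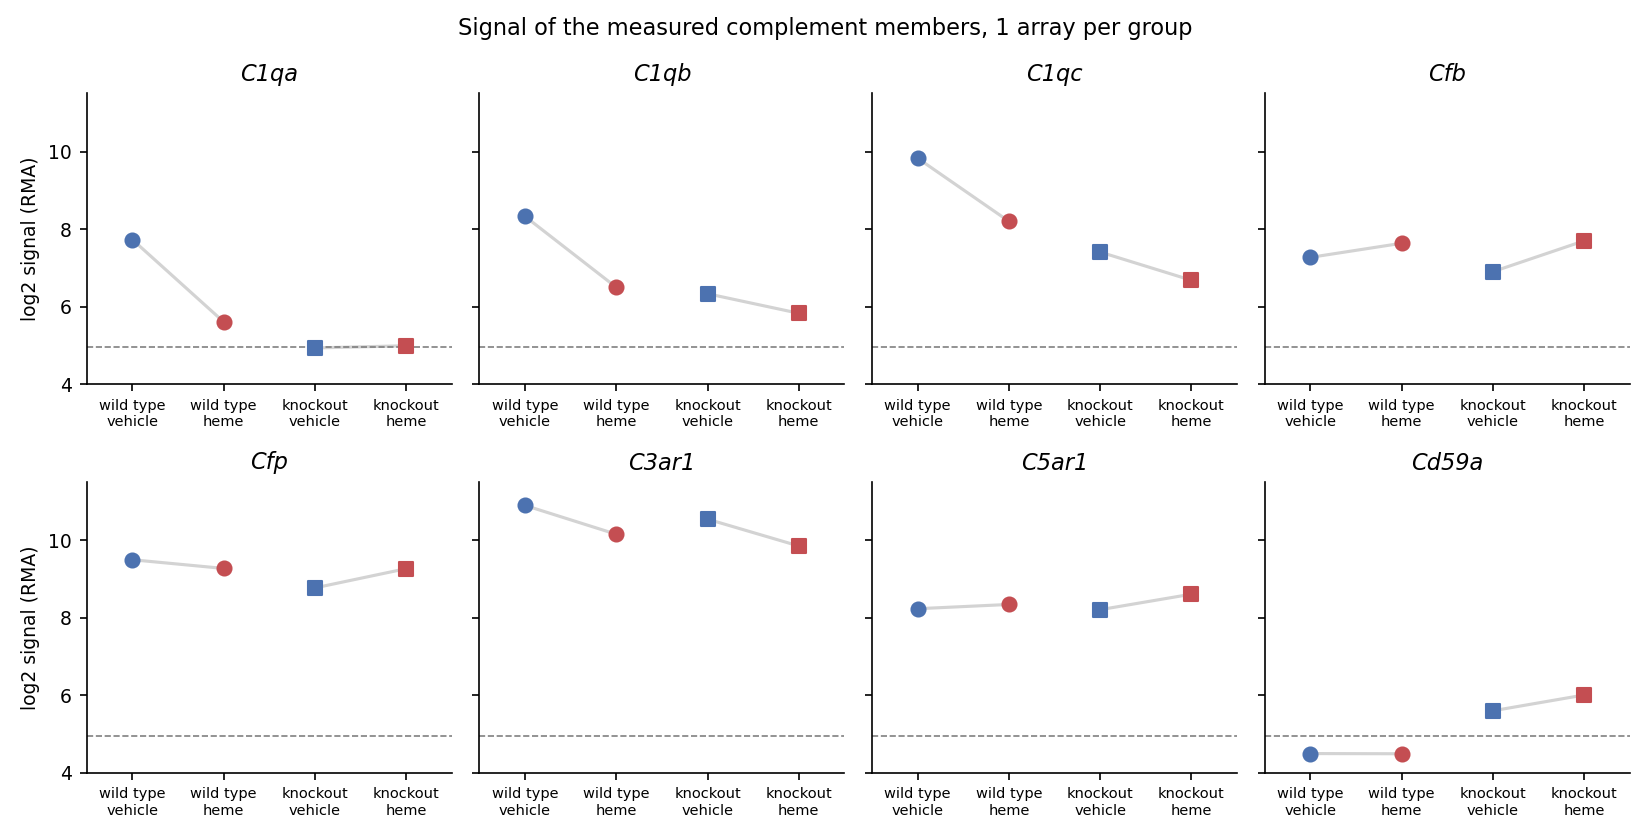
Log2 RMA signal (y axis) of the 8 measured members on each of the 4 arrays (x axis), 1 point per array, circles for wild type and squares for labelled knockout, blue for vehicle and red for heme; grey lines join vehicle and heme of a genotype and the dashed line is the level threshold of 4.95. The wild-type vehicle point is the highest for C1qa, C1qb and C1qc, while Cd59a crosses the threshold only on the labelled knockout arrays.

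Heme and vehicle arrays were compared within each genotype to see which members differ with heme when Bach1 is intact and when it is labelled as lost. In wild type 3 of the 7 members at level were 2-fold lower with heme, the C1q genes, against 0.891% of 10772 genes, and 0 were 2-fold higher, against 1.17%. The log2 difference was -2.12 for C1qa, -1.83 for C1qb and -1.63 for C1qc, and no more than 0.0557%, 0.0835% and 0.149% of genes at level had a difference as low. The median log2 difference of the 8 members was -0.48, beside -0.01 over all genes at level. In the labelled knockout 0 of 8 members were 2-fold higher, against 1.20% of 10843 genes, and 0 were 2-fold lower, against 0.452%. The C1q log2 differences there were 0.06 for C1qa, -0.50 for C1qb and -0.73 for C1qc, and the median of the 8 members was 0.23, beside 0.02 over all genes. C1qb and C1qc therefore read lower with heme on both genotypes, C1qb by 1.42-fold and C1qc by 1.66-fold in the labelled knockout. C1qa stood at the level threshold on both labelled knockout arrays, and how far this lies above background is unknown.

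The comparison of genotypes asks what the labelled loss of Bach1 does to these genes without and with added heme. With vehicle, 3 of 8 members were 2-fold lower on the labelled knockout array, against 1.14% of 10859 genes, and 1 was 2-fold higher, against 0.525%. The C1q genes were the lower ones, with C1qa 6.95-fold lower, C1qc 5.36-fold and C1qb 3.99-fold. With 32 added to each signal before log2, which damps folds of dim genes, C1qc was 4.67-fold lower, C1qa 3.91-fold and C1qb 3.14-fold. The heme response in wild type and the genotype difference with vehicle share the wild-type vehicle array, so the 2 sets of values are not independent of each other. Without that array, the comparison of genotypes with heme in both had C1qc 2.87-fold lower, C1qb 1.59-fold and C1qa 1.53-fold, the latter 2 short of 2-fold. In that comparison 1 of 8 members was 2-fold lower, against 0.973% of 10790 genes, and 1 was 2-fold higher, against 0.519%. The higher member was Cd59a in both genotype comparisons, at level only through the labelled knockout arrays.

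**Figure D2:**
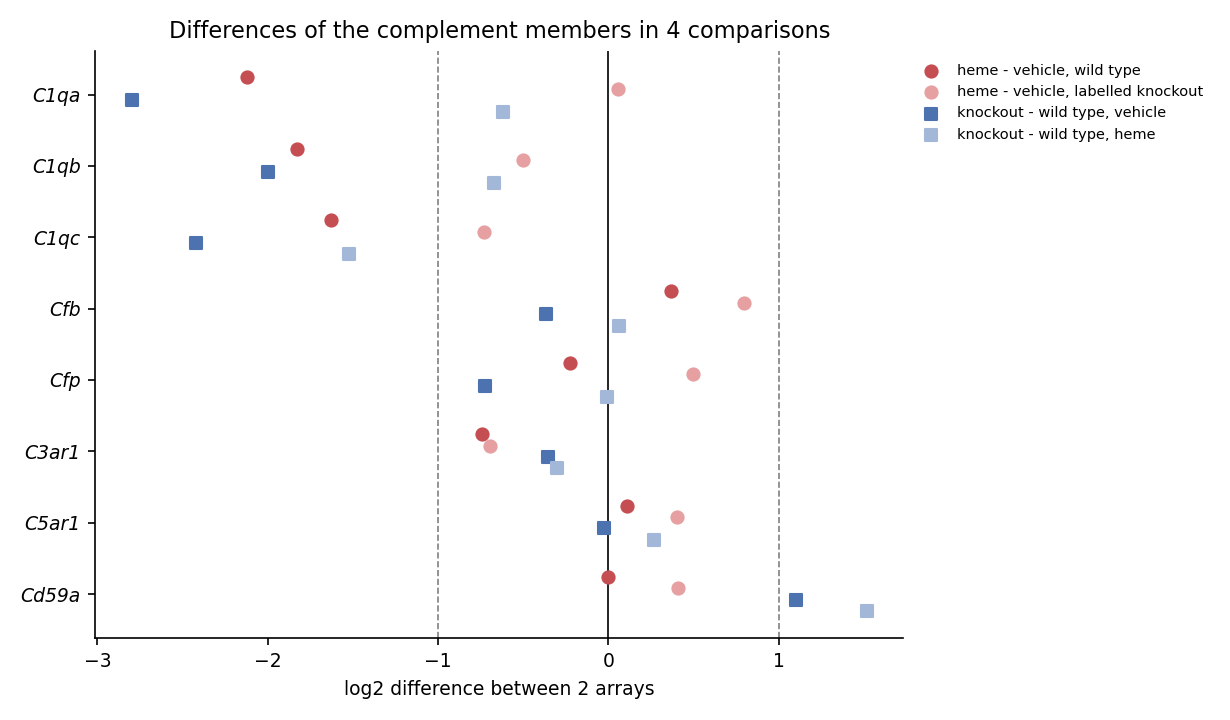
Log2 difference between 2 arrays (x axis) for each measured member (y axis) in 4 comparisons, red circles for heme minus vehicle and blue squares for labelled knockout minus wild type, dark where the wild-type vehicle array is used and pale where it is not; dashed lines mark 2-fold. The C1q genes lie between -2.80 and -1.63 in the dark symbols and between -1.52 and 0.06 in the pale ones.

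The 3 chains did not differ by equal amounts. Averaged on the log2 scale, their signal in wild type was 397 with vehicle and 109 with heme, and in the labelled knockout 74.9 with vehicle and 57.1 with heme. With heme in both genotypes, the log2 genotype difference of C1qa was 0.90 above that of C1qc, and that of C1qb was 0.85 above it. In the heme response of wild type the order was the other way, with C1qa 0.49 below C1qc. With 32 added to each signal, the log2 heme responses in wild type were nearly equal, at -1.60 for C1qa, -1.53 for C1qb and -1.53 for C1qc. The genotype differences with heme were then -0.34, -0.46 and -1.28. The difference of heme responses, labelled knockout minus wild type, was 2.18 for C1qa, 1.33 for C1qb and 0.90 for C1qc on the log2 scale. By this measure 2 of the 8 members differed 2-fold upwards, against 1.17% of 11155 genes, and 0 downwards, against 0.879%. It uses all 4 arrays and has no replicate, so it is a description.

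The C1q genes lie next to each other on mouse chromosome 4 in the RefSeq gene table, in the order C1qb, C1qc, C1qa. Of the 3 measured genes on each side, Kdm1a, Lactbl1, Zbtb40 and Wnt4 were at level and Tex46 and Epha8 were not. Kdm1a, a histone demethylase gene, had signals of 182 and 210 in wild type with vehicle and heme and of 184 and 190 in the labelled knockout. Zbtb40 had 42.8 and 38.1 in wild type and 44.4 and 40.5 in the labelled knockout. Log2 differences of these 6 neighbours lay between -0.39 and 0.51 in the 4 comparisons, so none reached 2-fold.

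The components of the alternative pathway showed smaller differences. Cfb encodes factor B, which supplies the protease of the alternative pathway convertase. Its signal was 155 with vehicle and 199 with heme in wild type, and 120 and 208 in the labelled knockout. Both heme arrays were thus above both vehicle arrays, by 1.29-fold within wild type and 1.74-fold within the labelled knockout. Cfp encodes properdin, which stabilises that convertase and is made by myeloid cells. It had signals of 721 and 618 in wild type and of 436 and 615 in the labelled knockout. The labelled knockout vehicle array was the lowest for Cfp, 1.65-fold below wild-type vehicle, and the heme arrays had nearly equal signals.

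The anaphylatoxin receptors had no 2-fold difference in any of the 4 comparisons. C3ar1, the receptor for the C3 fragment C3a, had signals of 1906 with vehicle and 1138 with heme in wild type, and of 1491 and 922 in the labelled knockout. It was lower with heme by 1.67-fold in wild type and 1.62-fold in the labelled knockout, so both vehicle arrays lay above both heme arrays. Like C1qb and C1qc it was highest on the wild-type vehicle array and lowest on the labelled knockout heme array, over a range of 2.07-fold. A heme difference as low as that of C3ar1 was found at 2.32% of genes at level for wild type and at 1.76% for the labelled knockout. C5ar1, the receptor for C5a, had 301 and 324 in wild type and 295 and 390 in the labelled knockout. Its highest and lowest arrays differed by 1.32-fold, the narrowest range of the 8 members.

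Cd59a encodes a membrane-anchored inhibitor of the pore that complement forms at its end. It had signals of 22.6 with vehicle and 22.5 with heme in wild type, both below level, and of 48.5 and 64.3 in the labelled knockout. Both labelled knockout arrays were above both wild-type arrays, by 2.15-fold with vehicle and 2.86-fold with heme. Cd59a was at level in both comparisons only through the labelled knockout arrays, so its place among genes at level is no support for the difference. With 32 added to each signal these folds were 1.47 and 1.77, which ends both calls. Cd59b, its paralog, lay between 10.4 and 13.1 on the 4 arrays, below level on each. Whether probes of either gene also read the other was not tested.

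Other genes of the complement system were measured for 42 of 45 listed names, of which 16 were at level on at least 1 array. In the heme response of wild type, in that of the labelled knockout and in the genotype difference with vehicle, 0 of 15 at level were 2-fold higher or lower. In the genotype difference with heme 1 of 15 was 2-fold lower and 0 were higher. Over all genes the shares were 0.452% to 1.20% in either direction, so that counts of 0 or 1 among 15 genes say nothing particular to this list. The median log2 differences of the 42 genes were -0.02, -0.07, 0.04 and -0.05 in these 4 comparisons. Over all genes at level they were -0.01, 0.02, -0.02 and 0.01. Most of the 42 were below level, so the 2 sets of medians cover unlike genes.

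The gene that passed 2-fold was Ptx3, a pentraxin that binds C1q. Its signal was 127 and 132 in wild type with vehicle and heme, and 66.8 and 52.9 in the labelled knockout. It was 1.90-fold lower on the labelled knockout array with vehicle and 2.50-fold lower with heme, or 1.93-fold with 32 added to each signal. Among the proteases of the classical pathway, C1ra, which encodes the protease C1r that works with C1q, lay between 69.6 and 91.6. The partner C1s gene C1s1 stayed between 6.92 and 8.53, below level.

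Among the receptors for C3 fragments, the integrin chains Itgam and Itgb2 differed by no more than 1.35-fold between any 2 arrays. Itgax, the alpha chain of complement receptor 4 and a dendritic cell marker, had signals of 1340 and 741 in wild type and of 972 and 547 in the labelled knockout. It was lower with heme by 1.81-fold and 1.78-fold. Vsig4, a C3b receptor of tissue macrophages, did not exceed 9.04, below level. The terminal components Hc, C6, C7, C8a, C8b and C9 were also below level on all arrays, while C8g lay between 35.2 and 50.9.

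**Figure D3:**
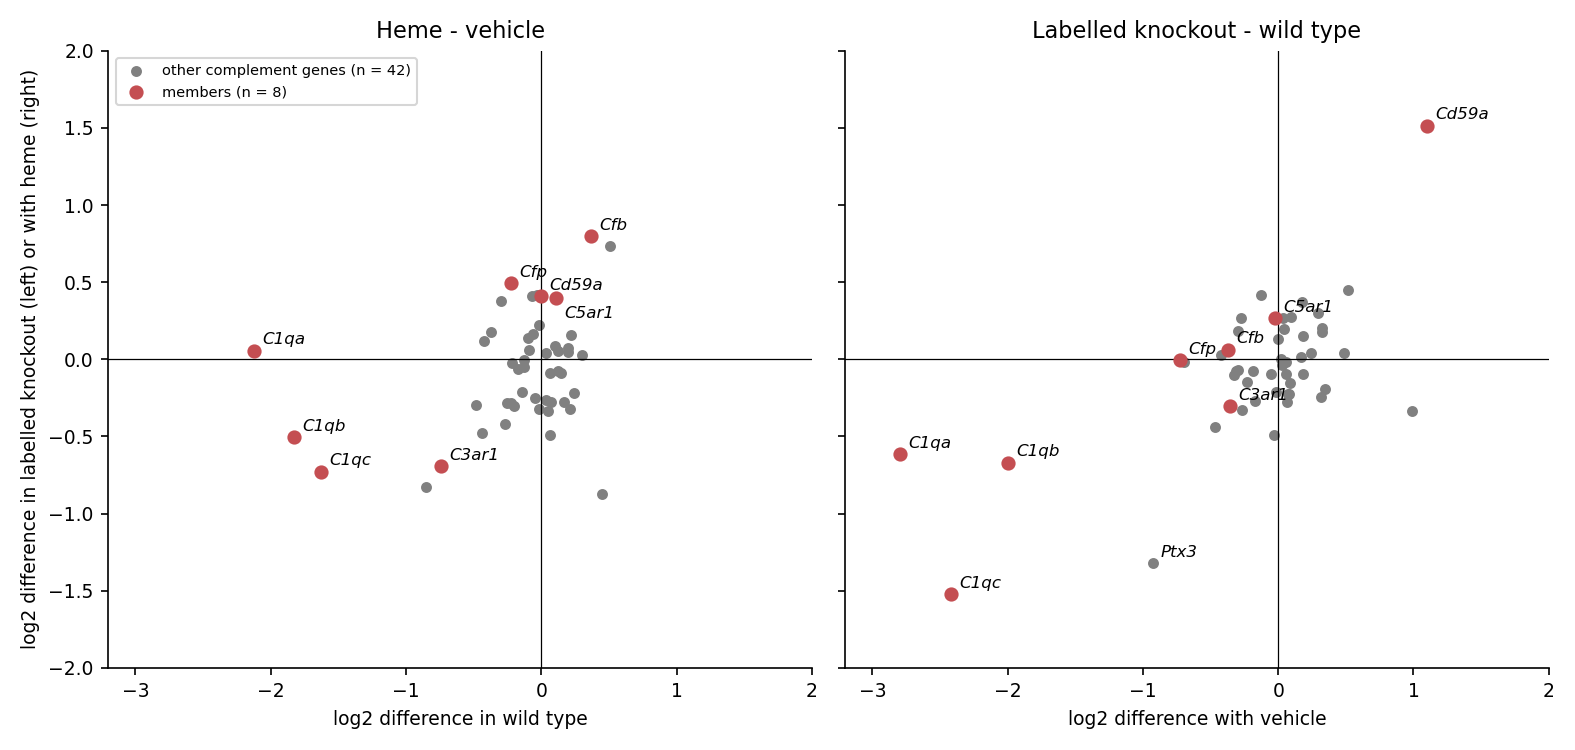
Log2 differences of the 8 members (red) and of 42 other complement genes (grey): the left panel sets the heme response in wild type (x axis) against that in the labelled knockout (y axis), the right panel the genotype difference with vehicle (x axis) against that with heme (y axis). C1qa, C1qb and C1qc lie at -1.63 or lower on the x axis of both panels, Cd59a lies at the upper right of the right panel at 1.10 and 1.52, and Ptx3 is the grey point lowest in the right panel at -0.93 and -1.32.

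Genes with the most similar profile were sought by the Euclidean distance between log2 signals over the 4 arrays after each gene was centred on its own mean. Predicted genes, clones, small RNA, olfactory and vomeronasal receptor and immune receptor segment names were left out before the nearest genes were named. The 8 genes nearest to the mean profile of the C1q genes were Fcrls, Rasgrp1, Fcgr1, Klra17, Nrep, Sema6d, Qpct and Cxcl16, at distances of 0.63 to 0.92, where the median over genes at level was 2.16. C1qa, C1qb and C1qc themselves lay 0.37, 0.35 and 0.42 from their mean. They define that mean, so these distances are small by construction and cannot be set against those of other genes. Fcrls, an Fc receptor-like gene known from microglia, had signals of 341 and 135 in wild type and of 76.7 and 39.1 in the labelled knockout. Fcgr1, the high-affinity IgG receptor gene, had 237 and 83.3 in wild type and 84.7 and 59.7 in the labelled knockout. The 5 genes nearest to Cd59a were Penk, Zfp418, Kcnj2, Pgm2l1 and Mpp7, at distances of 0.21 to 0.42 against a median of 1.37. Like Cd59a, Penk, Zfp418 and Kcnj2 were below level on both wild-type arrays. They were at level only through the labelled knockout arrays, so their nearness is no support for the Cd59a difference. Penk, the nearest, had 24.0 and 26.5 in wild type and 50.2 and 62.0 in the labelled knockout. With 4 arrays many profiles are alike, so nearness is a description of these arrays.

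**Figure D4:**
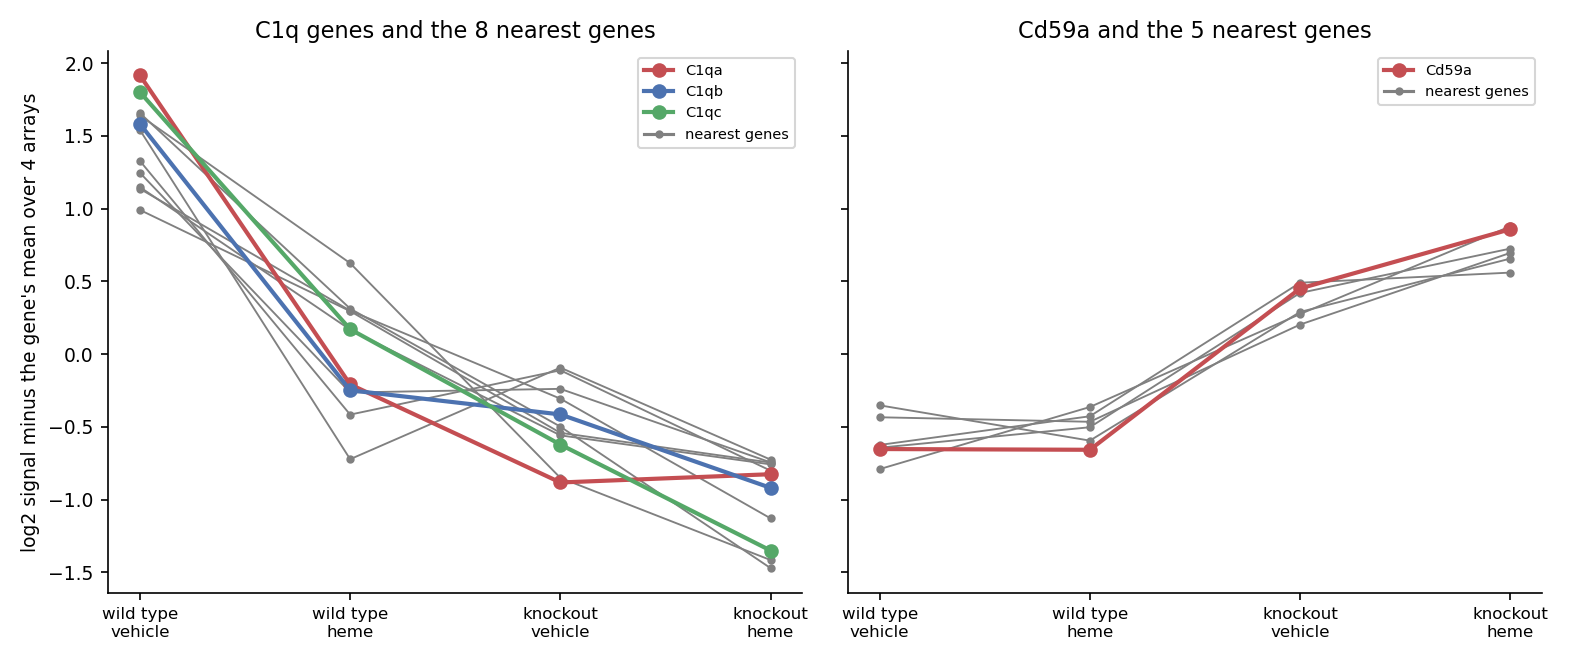
Log2 signal minus the gene's own mean over the 4 arrays (y axis) on each array (x axis), for the C1q genes with the 8 genes nearest to their mean profile (left, grey) and for Cd59a with its 5 nearest (right, grey); lines join the arrays of a gene only to guide the eye. The C1q genes start between 1.58 and 1.92 on the wild-type vehicle array and lie between -1.35 and -0.82 on the labelled knockout heme array.

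Cell type markers were set beside the C1q values, since in bulk cultures fewer cells of a type and less RNA per cell cannot be told apart. The summed signal of the 8 macrophage markers lay between 18481 and 19454 on the 4 arrays, with Lyz2 alone at 9990 to 10705, so the sum says little about the others. Between any 2 arrays Fcgr1 differed by up to 3.97-fold, Cd14 by 1.77-fold, Mertk by 1.52-fold and the rest by 1.38-fold or less. Fcgr1 was the 1 of 8 that was 2-fold lower in the wild-type heme response (0.891% of all genes) and in the genotype difference with vehicle (1.14%). The 7 dendritic markers summed to 7053 with vehicle and 5461 with heme in wild type, and to 2614 and 2027 in the labelled knockout. Cd74 and H2-Ab1 made up most of each sum. Cd74 alone had 3399 and 2879 in wild type and 877 and 829 in the labelled knockout. In both genotype comparisons 4 of the 5 at level were 2-fold lower, H2-Ab1, Cd74, Ciita and Ccr7, against 1.14% of all genes with vehicle and 0.973% with heme. Itgax, the other dendritic marker at level, was 1.38-fold lower with vehicle and 1.35-fold lower with heme. Of the 13 listed markers of resident-type macrophages 12 were measured, and their sum was 5073 and 2973 in wild type and 5612 and 3927 in the labelled knockout. In the wild-type heme response 3 of the 8 at level were 2-fold lower, namely Ms4a7, Fcrls and Apoe, against 0.891% of all genes, and in that of the labelled knockout 0 of 8 were, against 0.452%. With vehicle, 2 of 8 were 2-fold lower in the labelled knockout, against 1.14%, with log2 differences of -1.04 for Ms4a7 and -2.15 for Fcrls. With heme, Fcrls was again lower (-1.78) and Ms4a7 was higher (1.23), 1 of 8 each way, against 0.973% and 0.519%. In that comparison Ms4a7 was at level only through the labelled knockout array, with 50.3 against 21.5 in wild type. The largest part of this sum on each array was Selenop, which had 2594 and 1583 in wild type and 3370 and 2205 in the labelled knockout.

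The 11 neutrophil markers summed to 9188 with vehicle and 12486 with heme in wild type and to 7317 and 9797 in the labelled knockout, and S100a8 and S100a9 made up most of each sum. In the wild-type heme response 2 of 9 at level were 2-fold higher, Cxcr2 and Retnlg, against 1.17% of all genes, and in that of the labelled knockout 0 of 10 were, against 1.20%. In the genotype comparisons Retnlg was 2.57-fold higher in the labelled knockout with vehicle (1 of 10, against 0.525%) and Cxcr2 2.33-fold lower with heme (1 of 10, against 0.973%). The list did not move as 1. With vehicle Ly6g (log2 difference -0.86), S100a9 (-0.41), S100a8 (-0.40) and Csf3r (-0.25) were lower in the labelled knockout, and the other markers were higher. The median of the 11 was 0.08 with vehicle and -0.07 with heme. None of the markers of B, T and NK cells (7 measured) or of mast cells and basophils (5 measured) was at level on any array. Fibroblast and endothelial markers summed to 193 to 242 and erythroid markers to 93.6 to 108. At level on at least 1 array were 3 of the 8 fibroblast and endothelial markers and 3 of the 4 erythroid markers measured. No marker was listed at 0, but the lowest signal of any probe set was 2.12, so this says nothing about absence. The part of these cell types in the C1q differences was not tested.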

How the data were processed

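The deposited values are linear signal intensity per probe set of a mouse whole-transcript array, made with RMA by the authors, per the submitters' processing notes, from biotin-labelled cRNA. No genome build was stated for them, and the series' design text describes other samples. Of 35556 probe sets, 21789 had 1 gene symbol, 1621 had several and 12146 were not listed in the annotation; the brightest probe set stood for a gene. RMA is known to compress differences of dim probe sets, and no detection call was used.

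Values were taken to log2 and subtracted between arrays, with no scaling added. Of the members 8 of 9 were measured. The members, the lists and the naming rule were chosen with earlier results of these data known: all members, list genes at 2-fold, the 8 or 5 genes of nearest profile and 3 chromosomal neighbours a side. From marker lists the genes past 2-fold were named; Itgax, C1ra, C1s1, Cd59b, Vsig4 and the terminal components were chosen after their values were seen. The complement list shares Itgam, Itgax and Vsig4 with marker lists. The fold calls were tried on simulated 3-fold changes with noise of equal spread at every signal level. That setting says nothing about dim probe sets. Motifs were counted on both strands of RefSeq windows (GRCm38.p6). Tools were pandas 2.3.3, numpy 2.4.6, matplotlib 3.10.9 and statsmodels 0.14.6 under Python 3.11.15.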

Additional observations from a re-analysis of the deposited data

Results flagged for a closer look

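The members below had differences of opposite sign under the same contrast in the 2 genotypes or the 2 treatments; with 1 array a group the difference between them was not tested. C1qa was lower with heme in wild type (log2 difference -2.12) and nearly level in the labelled knockout (0.06), a difference of 2.18. Cfp had -0.22 and 0.50 in the same contrast, a difference of 0.72, and Cd59a -0.01 and 0.41, a difference of 0.41. The genotype difference of Cfb was -0.37 with vehicle and 0.06 with heme, a difference of 0.43. That of C5ar1 was -0.03 and 0.26, a difference of 0.29, and its vehicle value turned to 0.06 when quantile normalization was applied again. The robust SD of this difference of differences over all genes at level was 0.32, so that of C5ar1 lies within it.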

How the results depend on the processing

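All 9 member differences of 2-fold or more between 2 arrays kept their sign under 3 alternatives. These were 32 added to each value, quantile normalization applied again and lowess centring. With 32 added 7 stayed at 2-fold, and 9 did under each of the other 2. Averaging the probe sets of a gene could not change a member, since each had 1 probe set, so it checks nothing here. Cd59a was the exception with 32 added, so that 0 members were then higher in the labelled knockout with vehicle and 0 with heme, as also with the level set at a signal of 106, the 75th percentile, and a 3-fold rule. The shares of all genes that were higher were 0.147% with vehicle and 0.111% with heme when 32 was added. They were 0.424% and 0.364% at the stricter level and 0.0829% and 0.0463% under the 3-fold rule. Under the 1.5-fold rule 1 member was higher with heme in the labelled knockout, against 5.03% of all genes at level, and 2 were lower, against 3.07%. In the genotype difference with heme 3 were lower, against 3.43%, and 4 differed upwards in heme response, against 6.27%. By that rule 4 were lower with heme in wild type (4.73%) and 4 in the genotype difference with vehicle (4.31%). Under the 3-fold rule 0 were lower in the genotype difference with heme, against 0.259%, and 1 differed upwards in heme response, against 0.134%. No count of members moved without the level filter, and none could. The filter left out only Cd59a in the wild-type heme response, where its log2 difference was -0.01. Of the 8 genes nearest to C1q, 6 were shared with 32 added and 7 under the stricter level filter. No paired analysis was possible because each group has 1 array. How far a dim signal lies above background is unknown, which limits C1qa and Cd59a most.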
